A study of Mus musculus with 6 samples.

Results

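A set of 10 genes that mark newly formed, premyelinating oligodendrocytes was followed in RNA-seq data from the brains of Angptl2+/+ and Angptl2-/- mice. They are Enpp6, Neu4, Sirt2, Gpr17, Itpr2, Bmp4, Fyn, Rras2, Bcas1 and Tns3. The members were found as the rows of the deposited table whose Ensembl identifier carries one of these symbols in GENCODE M21, and all 10 were present among the 54532 identifiers of the table.

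Oligodendrocytes, the myelin-forming cells of the brain, arise from dividing precursor cells. A precursor that leaves the cell cycle first passes through a short premyelinating stage, in which it has many fine branches and has not yet wrapped an axon, and only then switches on the major myelin genes. Genes such as Enpp6, Gpr17 and Bcas1 are used to recognise this intermediate stage. In mice the third postnatal week is a time of rapid myelination, when precursors, newly formed cells and myelinating cells are all present.

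Total RNA of brain tissue at postnatal day 15 was sequenced from 3 Angptl2+/+ and 3 Angptl2-/- samples on an Illumina HiSeq instrument with paired-end reads. ANGPTL2 is a secreted angiopoietin-like protein, and the comparison asks how its loss affects gene expression in the brain at the time of myelination. Per the study's methods, the Angptl2-/- mice are on a C57BL/6 background and derive from an allele with loxP sites around exon 2. The deletion was made in the male germ line with Stra8-cre and passed on through wild-type females, so it is a deletion in the whole animal and not one in oligodendrocytes. The labels describe the material as all cell types of the brain and name no sorting, agent or treatment. They do not say that each sample came from a separate mouse, so the p-values measure the spread between these samples, which may in part be technical.

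FPKM are fragments per kilobase of exon, scaled by a factor for each library. All values by library are given in the order of their replicate numbers 1 to 3. Angptl2 itself was at 0.66, 0.958 and 0.29 FPKM in the Angptl2+/+ libraries. It was at 0.166, 0.32 and 0.126 FPKM in the Angptl2-/- libraries, from 13 to 34 fragments, so the library labelled Angptl2-/- replicate 2 lay above Angptl2+/+ replicate 3 (two-sided exact permutation test, p = 0.2, where 0.1 is the smallest p possible with 3 against 3). A value for the whole gene does not isolate the deleted exon. The libraries held 17127264 to 18928918 fragments assigned to genes. Markers of mature oligodendrocytes, astrocytes and neurons summed to at least 664, 540 and 999 FPKM in every library, and no library was a copy of another. Angptl2+/+ replicate 1 stood apart in markers of the cerebellum. Their summed level was 76.3 FPKM there and 7.42 to 23 FPKM in the other 5 libraries, and all 5 markers were highest in that library. Markers of the choroid plexus summed to 1.29 to 6.92 FPKM in Angptl2+/+ and 104 to 934 FPKM in Angptl2-/-, and those of the striatum to 60.1 to 142 and 132 to 253 FPKM. In Angptl2-/- most of the choroid plexus sum came from a single gene, Ttr, at 99.6 to 916 FPKM. Of the 6 choroid plexus markers, 4 were higher in Angptl2-/- without overlap (10.7% of all genes tested), and the others overlapped. Of the 7 striatal markers, 3 were higher in Angptl2-/- without overlap, and the others overlapped. The Y-linked gene Ddx3y was above 1 FPKM in 1 Angptl2+/+ and 2 Angptl2-/- libraries. The choroid plexus sums thus split by genotype, so their part in the results below cannot be told apart from genotype. Other regional markers and Ddx3y differed between libraries, and their part was not tested.

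None of the 10 genes differed between genotypes at an adjusted p under 0.05 (limma on log2(FPKM + 0.1), two-sided, Benjamini-Hochberg over the 14862 genes with a mean of at least 0.5 FPKM). All 10 genes passed this minimum, at which 0% of genes were called. Sirt2, a deacetylase of the premyelinating and myelin stages, was the one member whose 3 Angptl2-/- libraries all lay below the 3 Angptl2+/+ libraries, with a level 0.657 times as high (95% interval 0.464 to 0.931). For the other 9 genes the libraries of the genotypes overlapped. Among all genes tested, 11.8% were lower in Angptl2-/- without overlap and 10.7% were higher without overlap, so 1 of 10 is close to the background. Over the 10 genes the median difference was −0.11 on the log2 scale (0.00 over all genes tested), with 7 negative and 3 positive values, where 50.6% of all genes tested had a negative difference. Without Angptl2+/+ replicate 1, 5 were negative and 5 positive, with a median of 0.000688. In bulk brain RNA, fewer cells of a type and less RNA per cell cannot be told apart.

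**Figure D1:**
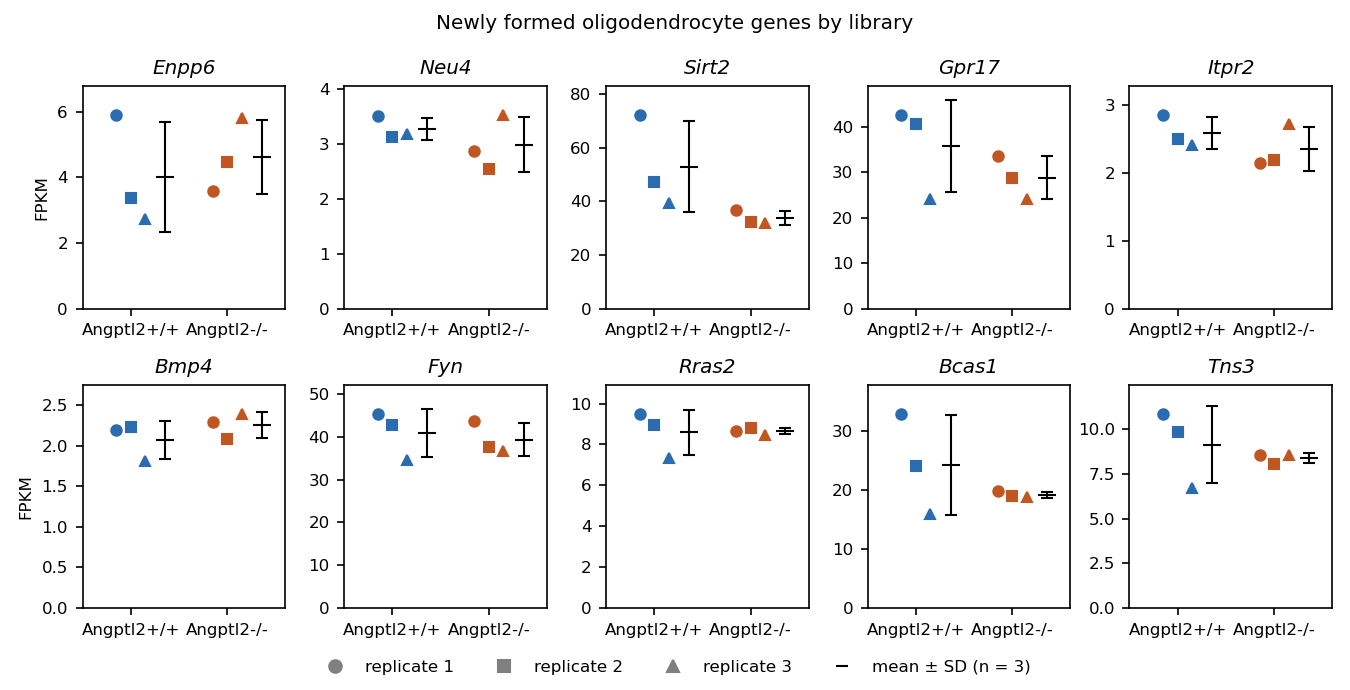
Level in FPKM (vertical axis, linear, from 0) of each of the 10 genes in the 3 Angptl2+/+ (blue) and 3 Angptl2-/- (orange) libraries, with a symbol for each replicate and the mean ± SD of each genotype (n = 3) as a black bar. Angptl2+/+ replicate 1 was the highest library for 8 of the 10 genes, Angptl2+/+ replicate 3 was the lowest for 6, and only for Sirt2 do the genotypes not overlap.

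The promoters of Enpp6 and Sirt2 are shown because these genes had the most positive and the most negative difference of the 10. The sequences are from RefSeq on GRCm38.p6, read 5′ to 3′ on the plus strand, and they end just before the GENCODE start of the gene, at chr8:46986637-46986886 for Enpp6 and chr7:28766502-28766734 for Sirt2. Capitals mark the letters AACAAT, which SOX transcription factors of the oligodendrocyte lineage can bind.
Enpp6: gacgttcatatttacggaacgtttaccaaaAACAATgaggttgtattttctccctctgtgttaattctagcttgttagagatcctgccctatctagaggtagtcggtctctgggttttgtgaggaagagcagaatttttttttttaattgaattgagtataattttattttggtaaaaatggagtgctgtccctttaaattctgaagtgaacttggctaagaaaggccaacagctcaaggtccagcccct
Sirt2: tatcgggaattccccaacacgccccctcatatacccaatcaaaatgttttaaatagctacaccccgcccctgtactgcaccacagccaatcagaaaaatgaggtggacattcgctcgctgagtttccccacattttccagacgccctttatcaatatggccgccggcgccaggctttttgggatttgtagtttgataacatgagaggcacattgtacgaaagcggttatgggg
For 8 of the 10 genes the 250 bases before the RefSeq start were searched on both strands. No promoter entry was at hand for Bcas1, and Gpr17 was left out of the search. AACAAT or its reverse complement ATTGTT was found in 2 of the 8, starting 220 bases before the start of Enpp6 and 141 bases before that of Tns3, and in 9.42% of all 32851 promoters. The E-box CAGCTG, a sequence that reads the same on both strands, was in 0 of the 8 and in 13% of all promoters. CTGGCAC or GTGCCAG, letters of the site of the myelin regulatory factor MYRF, was in 0 of the 8 and in 4.19% of all promoters. These matches describe the letters of these windows and say nothing about binding. The 250 bases of Enpp6 were 38.4% G or C, and those of the other 7 genes 50 to 74.4%.

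The enzymes of the group are Enpp6, Neu4 and Sirt2. Enpp6 encodes a choline-specific phosphodiesterase at the surface of newly formed oligodendrocytes. Its gene lies on chromosome 8 (chr8:46986887-47096762, plus strand, GRCm38). Enpp6 was at 5.9, 3.37 and 2.75 FPKM in Angptl2+/+ and at 3.59, 4.47 and 5.82 FPKM in Angptl2-/-, from 299 to 675 fragments per library. The Angptl2+/+ libraries held both the highest and the lowest value, and the range of the Angptl2-/- libraries fell within theirs. The log2 difference was 0.25 (SE 0.30, 95% interval −0.45 to 0.95, adjusted p = 0.682). The spread among Angptl2+/+ libraries (coefficient of variation 41.7%) was far above the 4.55% that counting alone gives. Without Angptl2+/+ replicate 1 the log2 difference of Enpp6 was 0.56, without Angptl2+/+ replicate 3 it was 0.02, and with a correction of each library for GC content it was 0.03. Among the 10 genes Enpp6 had the lowest share of G and C in its longest annotated transcript, 42.3%.

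Neu4 encodes a sialidase, which removes sialic acids from glycoproteins and glycolipids. It lies on chromosome 1 (chr1:94020451-94028334, plus strand). Its levels were 3.5, 3.13 and 3.18 FPKM in Angptl2+/+ and 2.88, 2.54 and 3.53 FPKM in Angptl2-/-. Angptl2-/- replicate 3 held the highest value of the 6 and Angptl2-/- replicate 2 the lowest, so the genotypes overlapped. Neu4 had a log2 difference of −0.14 (SE 0.15, 95% interval −0.50 to 0.22, adjusted p = 0.654). It was −0.03 without Angptl2-/- replicate 2 and −0.26 without Angptl2-/- replicate 3. Counting error alone was 6.28% at the 199 to 290 fragments of Neu4.

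Sirt2 encodes an NAD-dependent deacetylase that acts on tubulin and is abundant in oligodendrocytes and in the myelin sheath. Its gene is on chromosome 7 (chr7:28766735-28788661, plus strand). Sirt2 was at 72.2, 47.2 and 39.5 FPKM in Angptl2+/+. In Angptl2-/- it was at 36.8, 32.5 and 31.9 FPKM. The lowest Angptl2+/+ library was thus just above the highest Angptl2-/- library, and Angptl2+/+ replicate 1 was far above all others. The log2 difference was −0.60 (SE 0.21, 95% interval −1.11 to −0.10), with an unadjusted p of 0.0244 and an adjusted p of 0.277 in limma. Of all genes tested, 9.12% were lower at an unadjusted p under 0.05 and 7.09% were higher, and Sirt2 was the 1 member of 10 on the lower side, with 0 on the higher side. These shares were 5.32% and 3.24% without Angptl2-/- replicate 2, and 5.62% and 3.13% without Angptl2-/- replicate 3. Without Angptl2+/+ replicate 1 the log2 difference was −0.36, without Angptl2+/+ replicate 3 it was −0.79, and with the GC correction it was −0.45 (adjusted p from 0.207 to 0.711 over all alternatives). The unadjusted p was no longer under 0.05 without Angptl2-/- replicate 2, without Angptl2-/- replicate 3 or with the GC correction.

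The receptors were Gpr17 and Itpr2. Gpr17 encodes a G protein-coupled receptor that is high in late precursors and premyelinating cells and is switched off before they myelinate. It lies on chromosome 18 (31942997 to 31949636, minus strand), and 3.6% of its exon bases are shared with Lims2 on the opposite strand. Gpr17 was at 42.6, 40.6 and 24.2 FPKM in Angptl2+/+ and at 33.5, 28.6 and 24 FPKM in Angptl2-/-. Angptl2+/+ replicates 1 and 2 were above all Angptl2-/- libraries, and the third lay beside the lowest of them. The log2 difference was −0.29 (SE 0.23, 95% interval −0.83 to 0.26, adjusted p = 0.542). It was −0.14 without Angptl2+/+ replicate 1 and −0.54 without Angptl2+/+ replicate 3.

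Itpr2 encodes an inositol trisphosphate receptor, a channel that releases calcium from the endoplasmic reticulum. It lies on chromosome 6 (chr6:146108299-146502223, minus strand). Itpr2 was at 2.85, 2.49 and 2.4 FPKM in Angptl2+/+ and at 2.14, 2.19 and 2.71 FPKM in Angptl2-/-. Angptl2-/- replicates 1 and 2 were the lowest of the 6, and replicate 3 was the second highest. For Itpr2 the log2 difference was −0.14 (SE 0.15, 95% interval −0.49 to 0.22, adjusted p = 0.662). It was −0.07 without Angptl2+/+ replicate 1, −0.08 without Angptl2-/- replicate 1, −0.24 without Angptl2-/- replicate 3 and −0.27 with a correction for exon length.

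Bmp4 encodes a secreted ligand of the bone morphogenetic protein family, which holds back oligodendrocyte differentiation when it is added to precursors. It is the only secreted signal among the 10 and the lowest in level. The gene is on chromosome 14 (chr14:46383520-46390669, minus strand), and 4% of its exon bases are shared with Gm15217 on the opposite strand, which was at most at 0.0688 FPKM. Bmp4 was at 2.19, 2.23 and 1.81 FPKM in Angptl2+/+ and at 2.3, 2.08 and 2.39 FPKM in Angptl2-/-. The lowest library was Angptl2+/+ replicate 3 and the highest Angptl2-/- replicate 3. Bmp4 had a log2 difference of 0.12 (SE 0.15, 95% interval −0.23 to 0.47, adjusted p = 0.704). With 69 to 99 fragments per library, counting error alone (10.8%) was close to the spread among the Angptl2+/+ libraries (11.2%). Without Angptl2+/+ replicate 3 the log2 difference was 0.03. It was 0.21 with the correction for GC content and 0.22 with that for exon length, and under both the Angptl2-/- libraries lay above the Angptl2+/+ libraries without overlap, as did 7.02% and 11.2% of all genes tested.

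Fyn and Rras2 act inside the cell. Fyn is a Src family kinase that relays signals from axons and integrins and promotes process outgrowth and local translation of Mbp mRNA. It lies on chromosome 10 (chr10:39368855-39565381, plus strand). Fyn was at 45.3, 42.8 and 34.5 FPKM in Angptl2+/+ and at 43.8, 37.6 and 36.7 FPKM in Angptl2-/-, and the Angptl2-/- range fell within the Angptl2+/+ range. Between genotypes Fyn differed by −0.05 on the log2 scale (SE 0.13, adjusted p = 0.878), and its 95% interval of −0.36 to 0.27 corresponds to a level 0.777 to 1.2 times that in Angptl2+/+. RNA levels say nothing about the phosphorylation of the kinase. The sign of the Fyn difference turned under 3 of 20 alternatives, to at most 0.03.

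Rras2 encodes a small GTPase of the RAS family. It is on chromosome 7 (chr7:114046782-114117781, minus strand). Rras2 was at 9.48, 8.93 and 7.36 FPKM in Angptl2+/+ and at 8.64, 8.78 and 8.48 FPKM in Angptl2-/-. The Angptl2-/- libraries lay close together inside the Angptl2+/+ range, with a coefficient of variation of 1.74% against 12.8%. Its log2 difference was the closest to 0 of the 10, at 0.02 (SE 0.12, 95% interval −0.27 to 0.30, adjusted p = 0.958), and it turned to −0.09 without Angptl2+/+ replicate 3 and to −0.12 with the GC correction.

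Bcas1 and Tns3 encode scaffold proteins. Bcas1 is a marker of cells in early and active myelination and lies on chromosome 2 (chr2:170346991-170427845, minus strand). Opposite to it lie Bcas1os1 and Bcas1os2, which share 12.6% of its exon bases and were at most at 0.757 FPKM. Bcas1 was at 32.9, 24.1 and 15.9 FPKM in Angptl2+/+ and at 19.8, 19 and 18.9 FPKM in Angptl2-/-. The Angptl2+/+ libraries spread 2.06-fold, with a coefficient of variation of 34.8%, while the 3 Angptl2-/- libraries, at 2.72%, differed about as much as counting error (2.63%). For Bcas1 the log2 difference was −0.28 (SE 0.24, 95% interval −0.84 to 0.29, adjusted p = 0.564). It was −0.03 without Angptl2+/+ replicate 1 and −0.55 without Angptl2+/+ replicate 3.

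Tns3, which encodes a tensin that links integrins to the actin cytoskeleton, lies on chromosome 11 (chr11:8431652-8664535, minus strand). Tns3 was at 10.8, 9.85 and 6.71 FPKM in Angptl2+/+ and at 8.58, 8.05 and 8.55 FPKM in Angptl2-/-. As for Bcas1, the Angptl2-/- libraries were close together (coefficient of variation 3.56% against 23.6%) inside the range of the Angptl2+/+ libraries. The log2 difference was −0.09 (SE 0.18, 95% interval −0.52 to 0.33, adjusted p = 0.816), and it was −0.30 without Angptl2+/+ replicate 3, 0.04 without Angptl2+/+ replicate 1 and 0.01 with the GC correction.

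**Figure D2:**
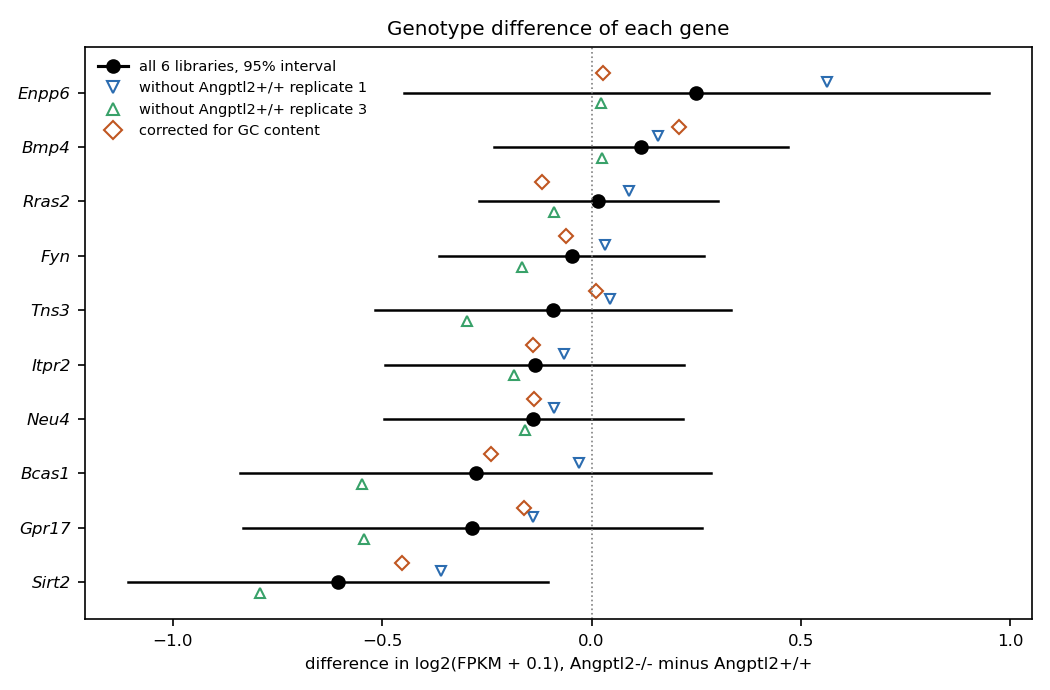
Difference in log2(FPKM + 0.1) between genotypes (horizontal axis, Angptl2-/- minus Angptl2+/+) for each of the 10 genes, with its 95% interval from limma as a line and open symbols for 3 alternatives. The intervals of 9 genes cross 0 and that of Sirt2 runs from −1.11 to −0.10, and the values without Angptl2+/+ replicate 1 (blue) lie to the right of those without Angptl2+/+ replicate 3 (green) for all 10 genes.

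The same libraries were at the extremes for most of the genes. Angptl2+/+ replicate 1 was the highest of the 6 libraries for 8 of the 10 genes (17.5% of all genes tested), the exceptions being Bmp4 and Neu4. Angptl2+/+ replicate 3 was the lowest for 6 of 10 (16.8% of all genes tested), namely Enpp6, Bmp4, Bcas1, Fyn, Tns3 and Rras2. The Angptl2+/+ range enclosed the whole Angptl2-/- range for 5 genes (Enpp6, Bcas1, Fyn, Tns3 and Rras2), as it did for 16.8% of all genes tested. The reverse, an Angptl2-/- range around all Angptl2+/+ values, was seen for Neu4 and for 9.38% of all genes tested. In 8 of 10 genes the SD of log2(FPKM + 0.1) was larger in Angptl2+/+, where 54.5% of all genes tested had this order. The 10 genes share these libraries, so they are not independent readings of their spread. Summed over the 10 genes, the level was 228, 185 and 138 FPKM in Angptl2+/+ and 162, 146 and 143 FPKM in Angptl2-/-, so the 3 Angptl2-/- libraries lay inside the Angptl2+/+ range. Sirt2 and Fyn, at 72.2 and 45.3 FPKM in Angptl2+/+ replicate 1, made up much of the sum in that library. The library with the highest sum, Angptl2+/+ replicate 1, is also the one that stood apart in cerebellar markers. The part of these markers in its level was not tested.

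By level, the 10 genes fell into an upper, a middle and a lower set, with FPKM already divided by gene length. Sirt2 (mean 43.3 FPKM over the 6 libraries), Fyn (40.1), Gpr17 (32.3) and Bcas1 (21.8) formed the upper set, Tns3 (8.76) and Rras2 (8.61) the middle one, and Enpp6 (4.32), Neu4 (3.13), Itpr2 (2.46) and Bmp4 (2.17) the lower one. The ranges over the 6 libraries of neighbours in this order overlapped, apart from Bcas1 with Tns3 and Rras2 with Enpp6. Sirt2 was above Fyn in all 3 Angptl2+/+ libraries and below it in all 3 Angptl2-/- libraries. Fyn and Sirt2 are also expressed by neurons and other brain cells, so their levels are not a measure of newly formed oligodendrocytes.

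Enpp6 and Gpr17, both used as markers of the premyelinating stage, did not keep to 1 ratio. Enpp6 was 13.9, 8.3 and 11.3% of the Gpr17 level in Angptl2+/+ and 10.7, 15.6 and 24.2% in Angptl2-/-. The genotypes overlapped in this ratio. The Angptl2-/- library with the least Gpr17 (replicate 3) had the most Enpp6, and the one with the most Gpr17 (replicate 1) had the least Enpp6. In Angptl2+/+ the order was the same for both genes, from replicate 1 as the highest to replicate 3 as the lowest. After the GC correction the ratios were 15.7, 10.2 and 11.8% in Angptl2+/+ and 11, 13.6 and 18.9% in Angptl2-/-, in the same order within Angptl2-/-. The longest annotated transcript of Gpr17 is 53.4% G or C. Sirt2 was 170, 116 and 163% of the Gpr17 level in Angptl2+/+ and 110, 113 and 133% in Angptl2-/-, so the genotypes overlapped in this ratio.

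Other genes of the oligodendrocyte lineage were set beside the 10. Of 20 other genes of newly formed oligodendrocytes, 19 were tested, since Gp1bb is listed at 0 in every library. Of these, 14 had a negative and 5 a positive difference, with a median of −0.16. Without Angptl2+/+ replicate 1 only 8 of the 19 were negative, and with the GC correction the median was −0.05. At an unadjusted p under 0.05, 3 were lower and 0 higher (9.12% and 7.09% of all genes tested). Without overlap 4 were lower and 1 higher (11.8% and 10.7% of all genes tested). No gene of this list had an adjusted p under 0.05. The 3 with the smallest p were Kif19a, which encodes a kinesin, Lims2, an adaptor of integrin adhesions, and Nfasc, an adhesion molecule of axons and paranodal glia. Kif19a was at 3.69, 3 and 2.37 FPKM in Angptl2+/+ and at 1.86, 1.72 and 1.92 FPKM in Angptl2-/-, a log2 difference of −0.67 (SE 0.18, adjusted p = 0.273). For Lims2 it was −0.48 (adjusted p = 0.277), and for Nfasc −0.31 (adjusted p = 0.288), both without overlap. Rap2a, a small GTPase and the most abundant of the list, was at 50.2 to 50.8 FPKM in Angptl2+/+ and 53.7 to 54.5 FPKM in Angptl2-/- (log2 difference 0.10, adjusted p = 0.538).

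**Figure D3:**
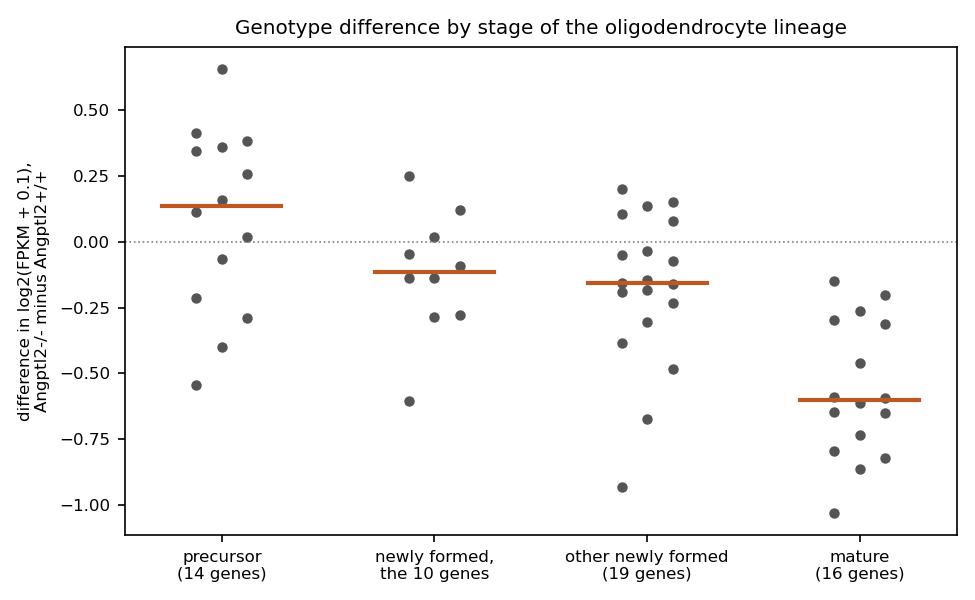
Difference in log2(FPKM + 0.1), Angptl2-/- minus Angptl2+/+ (vertical axis), of each gene tested (points) in 4 lists of the oligodendrocyte lineage, with the median of each list as an orange line. The medians were 0.13 for precursor genes, −0.11 for the 10 newly formed genes, −0.16 for the other newly formed genes and −0.60 for mature genes.

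The stages before and after differed in their values. Of 14 precursor genes, 5 had a negative and 9 a positive difference, with a median of 0.13. At an unadjusted p under 0.05, 1 was lower and 3 were higher, beside 9.12% and 7.09% of all genes tested. The lower gene was Gpr37l1, an orphan receptor, at −0.54. Among the higher genes were Ptprz1, a receptor phosphatase, at 0.36, and Vcan, the proteoglycan versican, at 0.65. Pdgfra, the growth factor receptor that defines precursors, was at 9.14 to 11.8 FPKM in Angptl2+/+ and 11.2 to 12 FPKM in Angptl2-/-. All 16 genes of mature oligodendrocytes had a negative difference, with a median of −0.60. Among them 4 were lower at an unadjusted p under 0.05, and these included Mbp, a major myelin protein (−0.86), and Mag, an adhesion molecule of the inner myelin surface (−0.82). No gene of these lists had an adjusted p under 0.05, and the difference between the stages was not tested. The order of the medians rested in part on Angptl2+/+ replicate 1, the highest library for all 16 mature genes. Without it the medians were 0.11 for precursor genes, 0.00 for the 10 newly formed genes, 0.08 for the other newly formed genes and −0.24 for mature genes. Without Angptl2+/+ replicate 3 they were 0.03, −0.17, −0.32 and −0.75.

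**Figure D4:**
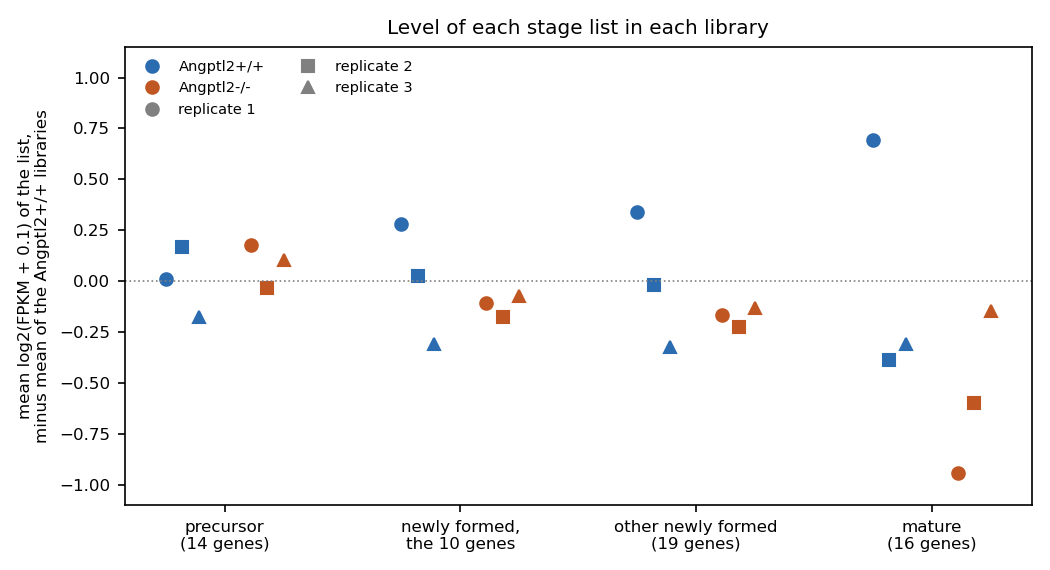
Mean log2(FPKM + 0.1) over the genes of a list, by library and relative to the average of the 3 Angptl2+/+ libraries (vertical axis), with color for genotype and symbol for replicate. For the 10 newly formed genes the Angptl2-/- libraries lie between −0.18 and −0.07, inside the Angptl2+/+ range of −0.31 to 0.28, while the mature genes spread from −0.94 to 0.69.

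Within Angptl2-/- the mature genes spread widely over the libraries, while the 10 newly formed genes did not. The mean log2 level of the mature genes was −0.94, −0.60 and −0.15 in Angptl2-/- replicates 1, 2 and 3, relative to the Angptl2+/+ mean. That of the 10 newly formed genes was −0.11, −0.18 and −0.07 in the same libraries. Replicate 3 was the highest for both lists. The values of the 10 genes lay closer together than the SD of their mean between libraries (0.21), so their order is not resolved. In Angptl2+/+, replicate 2 had the lowest mature level (−0.39) and an intermediate level of the 10 genes (0.03).

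Components of the pathways in which Bmp4 and Fyn act were also read. Of 18 genes of BMP signalling, 9 had a negative and 9 a positive difference (median 0.01). At an unadjusted p under 0.05, 3 were lower and 3 higher, beside 9.12% and 7.09% of all genes tested. The smallest p-values were those of Acvr2a, a type II receptor (0.60), Smad7, an inhibitory SMAD (−0.38), and Chrd, the BMP antagonist chordin (−0.69), with adjusted p of 0.273, 0.273 and 0.274. Id2, a target of BMP signalling and the most abundant of the list, was at 32.1 to 50.2 FPKM in Angptl2+/+ and 31.5 to 46.9 FPKM in Angptl2-/- (−0.05, adjusted p = 0.92). Of 14 genes around Fyn, 4 had a negative and 10 a positive difference (median 0.05), with 1 lower (Mag) and 2 higher at an unadjusted p under 0.05. The latter were Cntn1, the axonal ligand contactin (0.35), and Cdc42, a small GTPase that shapes the actin cytoskeleton (0.31).

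For 7 of the 10 genes the paralogues were read in the same libraries. Fyn was the most abundant of 8 Src family kinases, with 51.9 to 61.7% of their summed FPKM, followed by Src at a mean of 22.4 FPKM. Src was at 23.3, 28.3 and 27 FPKM in Angptl2+/+ and at 21.4, 17.5 and 17 FPKM in Angptl2-/-, without overlap (log2 difference −0.49, adjusted p = 0.273). Sirt2 held 66.2 to 77.4% of the sirtuin FPKM. Among the 7 sirtuins, 5 were lower in Angptl2-/- without overlap (Sirt2, Sirt3, Sirt4, Sirt6 and Sirt7), beside 11.8% of all genes tested, and Sirt1 was higher without overlap, beside 10.7% (log2 difference 0.40, adjusted p = 0.28). The log2 differences of Sirt6 (−0.61) and Sirt4 (−0.64) were of the size of that of Sirt2, at mean levels of 3.63 and 2.29 FPKM. Tns3 held 54.9 to 66.8% of the tensin FPKM. In the other families a paralogue was more abundant. Itpr2 held 7.99 to 11.7% of the inositol trisphosphate receptor FPKM, beside Itpr1 at 22.2 FPKM. Enpp6 ranked below Enpp2 (75.5 FPKM), Enpp5 (55.6) and Enpp4 (5.77) in mean level, although it was above Enpp4 in Angptl2+/+ replicate 1 (5.9 against 4.94 FPKM). Neu4 ranked below the lysosomal sialidase Neu1 (11.4 FPKM), and Rras2 was the fifth of 6 RAS genes, with Mras first at 34 FPKM.

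**Figure D5:**
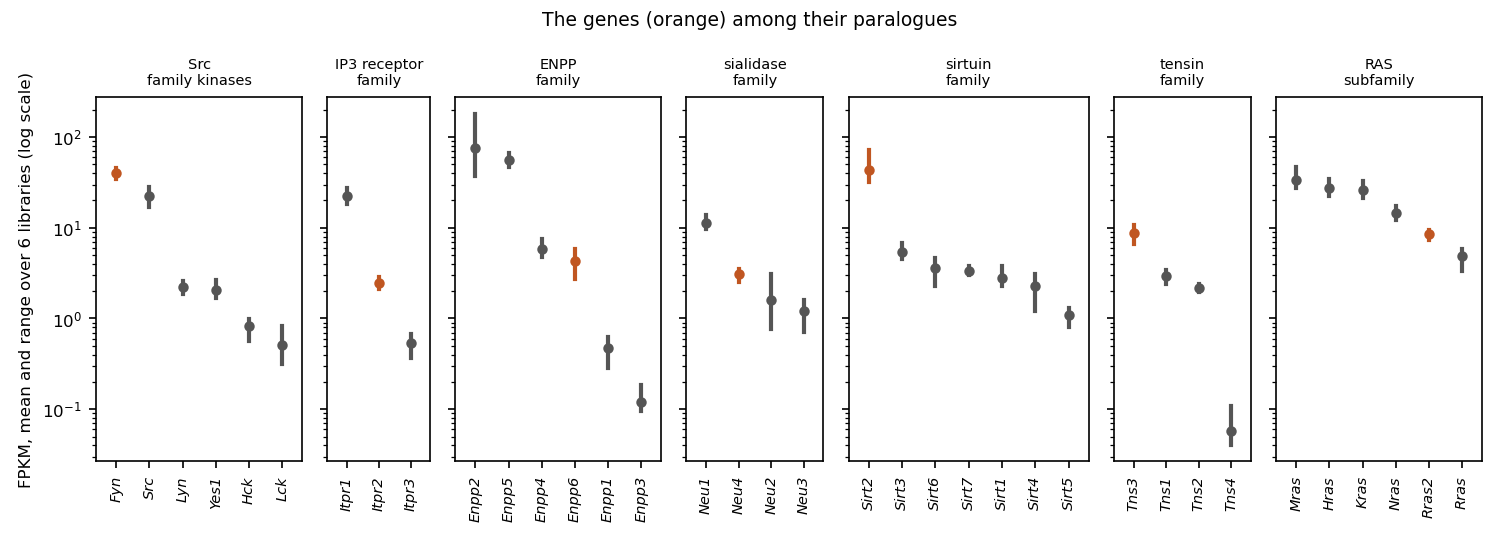
Level in FPKM (vertical axis, log scale) of the 7 genes with paralogues (orange) and of their family members (grey), as the mean (point) and the range over the 6 libraries (line), with genes under 0.02 FPKM in any library left out. Fyn, Sirt2 and Tns3 were the most abundant of their families, at means of 40.1, 43.3 and 8.76 FPKM.

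Markers of other cell types were read in the same libraries. Summed FPKM of 8 astrocyte markers was 558 to 688 in Angptl2+/+ and 540 to 571 in Angptl2-/-, and that of 7 neuron markers 999 to 1339 and 1130 to 1251. The 7 microglia markers summed to 94.7 to 107 and 86.9 to 102 FPKM, and the 5 endothelial markers to 79.3 to 81 and 58.8 to 69 FPKM. Among the endothelial markers only Cldn5, the most abundant, was lower without overlap (33.7 to 44.4 against 20 to 30.4 FPKM), beside 11.8% of all genes tested. Single markers of the other lists also separated, although most of their sums overlapped. Without overlap, 2 astrocyte markers were lower and 1 higher in Angptl2-/-, 1 neuron marker was lower and 1 microglia marker was higher. The share of all genes tested that were higher without overlap was 10.7%. The 3 red blood cell markers summed to 267 to 466 FPKM in Angptl2+/+ and 113 to 252 FPKM in Angptl2-/-. All 3 were highest in Angptl2+/+ replicate 1, and 2 of them were lower in Angptl2-/- without overlap. None of these markers was at 0 in all libraries.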

How the data were processed

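RNA-seq of brain tissue was compared between 3 Angptl2+/+ and 3 Angptl2-/- samples, grouped by the genotype in the labels. The authors deposited a table of FPKM for each gene in each library. Their processing notes list the aligner Bowtie (0.12.2) and the build mm8. Which program counted fragments, with which annotation and strand, is not given in the sources used here. GENCODE M21 (GRCm38) holds 54495 of the 54532 identifiers and lacks 37. When its exon lengths were used to turn FPKM into fragments, 96.6 to 96.8% of non-zero values came out whole (tolerance 0.05). Fragments set counting error only. The FPKM scale implied 16976443 fragments for Angptl2+/+ replicate 3, where 18167953 were recovered, so it was not the plain sum of fragments. Median-ratio factors were 0.998 to 1.009 over the libraries, so that scaling could change little. The 10 members and all gene lists were chosen with earlier results of these data known, so no list is independent evidence.

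Genotype differences in log2(FPKM + 0.1) were fitted by limma (3.58.1, R 4.3.3), using an intensity trend, for 14862 genes with a mean of at least 0.5 FPKM, and p-values were adjusted by Benjamini-Hochberg over all of them. A difference on this scale understates the change of low genes. Spreads and ratios were computed with Python 3.11.15, and overlap of groups was read from FPKM. Named genes are the 10 members, Angptl2, their paralogues, the 3 genes of smallest p and the most abundant gene of each pathway or stage list, and the most abundant of each other list, of which some are not reported here. Pdgfra and Ddx3y, the overlapping genes and Gapdh were named outside this rule, the last after its values were seen. In a simulation that used the real spread, limma recovered 46% of 100 genes with a log2 difference of 1 and 82% of 100 with a difference of 2, with 11 false calls among 14662 unchanged genes. The simulated noise was independent between genes, and its size was the spread estimated for each gene from these libraries. All changed genes were planted in the same fit, which eases the Benjamini-Hochberg cut. Recovery of a gene that changes alone was thus not tested. The 10 members all had smaller differences than those simulated, so recovery at their size was not tested. Alternatives covered pseudocount, filter, scaling, GC and length correction, moderation, a replicate block, voom on recovered fragments and leaving out each library.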

Additional observations from a re-analysis of the deposited data

How the results depend on the processing

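None of the 10 genes had an adjusted p under 0.05 in any of 20 alternatives, and over all genes 0 were called by limma, with an unadjusted p under 0.05 for 1355 lower and 1054 higher genes, and 0 by voom. Leaving out each library in turn gave 0 to 1 called gene (Gapdh, without Angptl2+/+ replicate 1). The median of the 10 genes ranged from −0.17 (without Angptl2+/+ replicate 3) to 0.000688 (without Angptl2+/+ replicate 1), against −0.11 with all libraries. Of the 200 member values under alternatives, 7 changed sign. With each library left out in turn, Fyn ranged from −0.165 to 0.0308, Tns3 from −0.298 to 0.0446 and Rras2 from −0.0901 to 0.0901, the lower bounds without Angptl2+/+ replicate 3 and the upper without Angptl2+/+ replicate 1. With the GC correction Tns3 was 0.0097 and Rras2 −0.12. Fyn was 0.0049 with quantile normalization and 0.016 with FPKM rescaled to their sum without mitochondrial and haemoglobin genes, an alternative added after the data were seen. That rescaling put 1728 higher and 857 lower genes under an unadjusted p of 0.05 and moved the higher share of these calls from 43.8 to 66.8%, and quantile normalization moved it to 53.5%. The GC correction gave 467 higher and 563 lower. Members at an unadjusted p under 0.05 numbered 2 without Angptl2+/+ replicate 1 (Sirt2 lower and Enpp6 higher, beside 6.73% lower and 4.03% higher of all genes tested) and 4 lower without Angptl2+/+ replicate 3 (Sirt2, Gpr17, Bcas1 and Tns3, beside 10.8% lower of all genes tested). They numbered 0 without Angptl2-/- replicate 2, without Angptl2-/- replicate 3 and with the GC correction, and 1 otherwise. Members without overlap numbered 2 (Bmp4 and Sirt2) with the GC correction (6.26% of all genes lower and 7.02% higher without overlap) and with the length correction (10.8% and 11.2%). With each library left out in turn, 465 to 1373 genes were higher and 790 to 1656 lower by the unadjusted p. In each case the cause was not tested.

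The shared replicate numbers were not taken as pairs. Correlations of deviations from the group means were 0.0371, −0.0693 and 0.162 for numbers 1, 2 and 3. For samples numbered unlike they ran from −0.256 to 0.257, so they cannot tell whether the samples were paired. With the replicate number as a block, 1 gene was called (Ttr), and none of the 10 genes. Samples numbered alike did not in every case correlate best with each other. Low levels limit Bmp4 and Neu4, where counting error alone is 10.8 and 6.28%.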
